A study of Mus musculus with 12 samples.

Results

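Transcripts of 10 p53 target genes were followed in mouse femoral bone marrow after cyclophosphamide, an alkylating drug that damages the DNA of dividing cells. The genes were Cdkn1a, Ccng1, Zmat3, Mdm2, Trp53inp1, Bax, Bbc3, Pmaip1, Eda2r and Phlda3. They were picked by gene symbol as textbook targets of p53 and make up 10 of the 34745 genes in the count table, and all 10 passed the filter on low counts in each of 6 comparisons. In the comparisons with normal, Eda2r passed that filter only through the cyclophosphamide-treated group, where it is high. Total marrow RNA came from 12 male ICR mice, an outbred stock, in 4 groups of 3. Normal mice were given saline. The model group received cyclophosphamide by the intraperitoneal route at 80 mg/kg/day from day 5 to day 7 of a 1-week course. QJSB mice were given the same cyclophosphamide plus 3 g/kg/day of QJSB, a herbal granule. Leucogen mice were given it plus 20 mg/kg/day of leucogen, a drug used against low white cell counts. Age was not given in the sources used here.

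p53 is a transcription factor that accumulates after DNA damage and switches on genes that stop the cell cycle, repair DNA or kill the cell. Its targets include its own inhibitor, Mdm2, which marks p53 for destruction and so closes a negative feedback loop. Bone marrow is among the tissues in which p53 responds strongly to DNA damage, and loss of dividing progenitors is the main toxicity of alkylating drugs there.

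The DNA element that p53 binds is a pair of decamers, each made of purines, a C, A or T letters, a G and pyrimidines. RefSeq promoter windows (GRCm38.p6, 250 bases before to 50 bases after each transcription start) were searched for this p53 decamer, whose pattern reads the same on both strands. The table held 10 windows for 7 of the 10 genes. An exact decamer occurred in 4 of these 10 windows, beside 8.36% of all 32851 windows. A pair of adjacent decamers with at most 3 mismatches in 20 bases occurred in 3 of the 10, beside 1.38% of all windows. The 2 closest pairs, those of Cdkn1a and Ccng1, had 1 mismatch each, and 0.0670% of all windows held a pair at least as close. The sequences are printed because they are the letters that the members have in common with the p53 element. They run 5′ to 3′ along the gene's strand, and capitals mark the pair of decamers:
Cdkn1a (chr17:29090898-29090977, plus strand): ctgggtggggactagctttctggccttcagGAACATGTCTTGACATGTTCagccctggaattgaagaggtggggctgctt
Ccng1 (chr11:40755432-40755511, minus strand): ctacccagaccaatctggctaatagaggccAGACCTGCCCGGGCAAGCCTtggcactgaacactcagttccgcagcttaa
Bbc3 (chr7:16309456-16309535, plus strand): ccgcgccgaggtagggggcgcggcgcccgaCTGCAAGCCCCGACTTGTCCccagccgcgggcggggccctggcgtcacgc

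In Mdm2 and Bax the window held a single exact decamer, again in capitals:
Mdm2 (chr10:117710905-117710974, minus strand): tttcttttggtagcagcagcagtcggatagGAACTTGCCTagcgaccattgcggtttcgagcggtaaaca
Bax (chr7:45467060-45467129, minus strand): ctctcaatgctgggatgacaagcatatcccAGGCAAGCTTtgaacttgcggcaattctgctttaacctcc

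The match ended 31 bases before the start of Cdkn1a, 77 before that of Bbc3, 175 before that of Ccng1, 176 before that of Mdm2 and 191 before that of Bax. None of the matches lay in an annotated exon. That of Bbc3 lay within the Bbc3 gene as annotated, although before the transcription start of its window. That of Bax lay within Gm45808, a protein-coding gene on the same strand that also overlaps Bax, so reads of Bax may be shared with it. The other windows of Cdkn1a and Bbc3 and those of Eda2r and Phlda3 held no match. A match describes these letters only, and binding was not measured.

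Levels are given as CPM, counts scaled to a common library size. Levels of different genes are compared only as FPKM, the deposited value per transcript length. In normal marrow, the FPKM level was highest for Trp53inp1 (97.5 ± 7.64, SD, n = 3), followed by Ccng1 (39.7 ± 2.72), Bax (13.2 ± 0.568) and Mdm2 (9.59 ± 0.662). Pmaip1 (4.47 ± 0.920) and Cdkn1a (4.05 ± 1.24) overlapped, as did Phlda3 (1.21 ± 0.456) and Bbc3 (1.15 ± 0.0765). Zmat3 (0.781 ± 0.0556) and Eda2r (0.0596 ± 0.0373) were lowest. The 3 genes that lead to cell death through the mitochondrion, Bax, Pmaip1 and Bbc3, were therefore separated from one another in normal marrow by more than the spread between mice.

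Compared with the normal group, 3 of these 10 genes passed the cutoff in the model group, in both directions. Pmaip1 and Eda2r rose and Trp53inp1 fell past the cutoff, which asked for a log2 fold change beyond 0.585 in either direction and an adjusted p under 0.05. These 3 of 10 stand beside 35.1% of the 14752 genes tested, and separately 2 of 10 called higher stand beside 16.1% and 1 of 10 called lower beside 19.0%. The share called among the p53 targets was thus close to that of all genes. Their median log2 fold change was 0.10 and that of all genes tested 0.02. The 3 normal and 3 model libraries did not overlap for 7 of the 10, beside 55.5% of all genes.

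**Figure D1:**
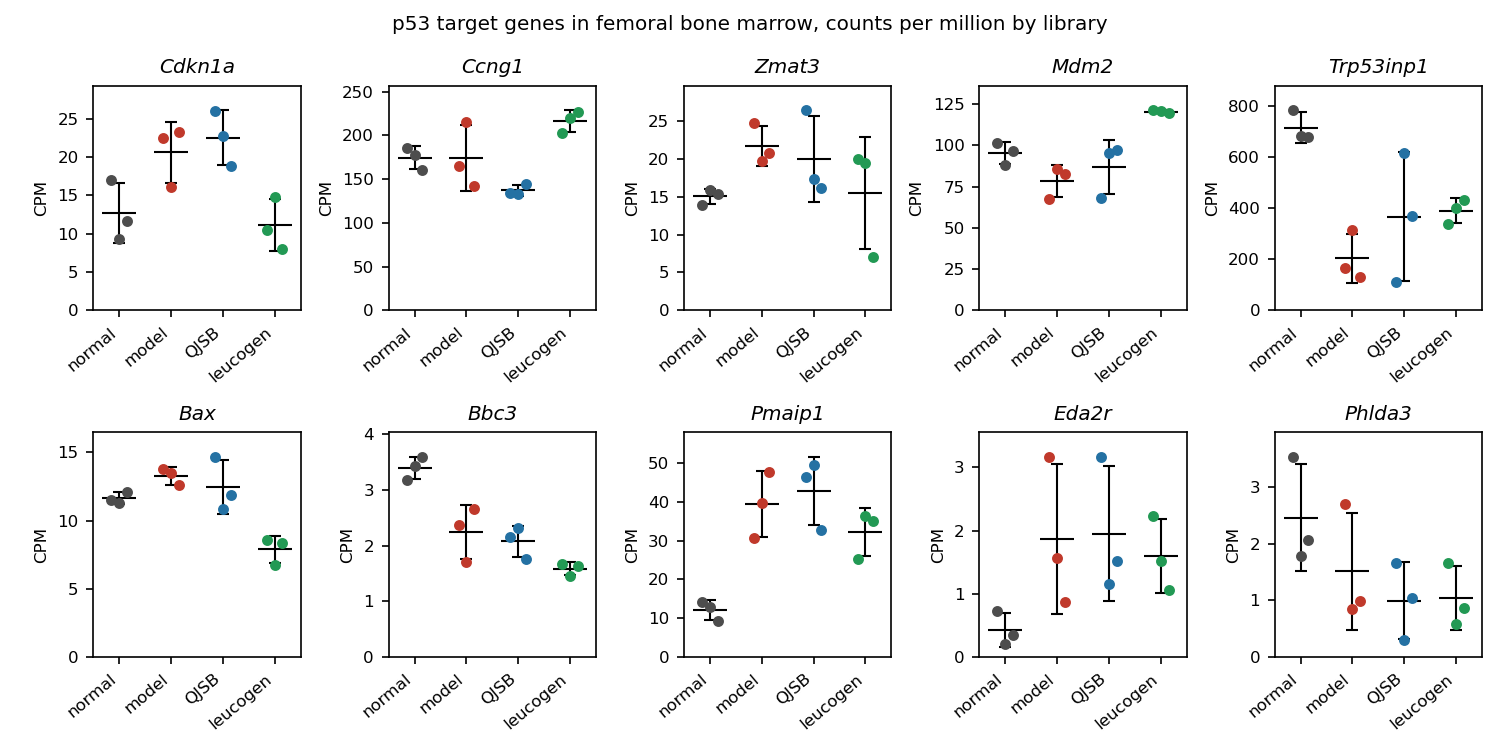
CPM (vertical axes, linear from 0) of the 10 p53 target genes in each of the 12 libraries, with a bar at the mean and whiskers of 1 SD (n = 3). Pmaip1 in all 9 cyclophosphamide libraries lies between 25.2 and 49.4 CPM, above the normal range of 9.16 to 14.0, while Trp53inp1 lies below its normal range of 678 to 784 in all 9.

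Among the genes of cell cycle arrest, Cdkn1a encodes p21, the inhibitor of cyclin-dependent kinases through which p53 halts the cell cycle. Its levels were 17.0, 9.33 and 11.7 CPM in the normal libraries and 22.5, 16.1 and 23.3 CPM in the model libraries. The groups overlapped, because normal 1 lay above model 2. The log2 fold change was 0.71 (SE 0.25, 1.63-fold), and the edgeR adjusted p was 0.0517, just above the cutoff. Cdkn1a passed it in 8 of 15 alternative analyses, with edgeR, DESeq2 or limma adjusted p between 0.0224 and 0.0484, and over all 15 the adjusted p ran from 0.0224 to 0.173. Those that passed included the fit without normal 1 (0.98) and that without model 2 (0.87), both as log2 fold changes. An antisense transcript, AC167363.2, overlaps Cdkn1a, and the strand setting of the counting was not given in the sources used here.

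Ccng1 encodes cyclin G1, a p53 target that acts with a phosphatase on Mdm2. Its levels were 186, 177 and 160 CPM in normal and 165, 215 and 142 CPM in model libraries. The means were 174.4 ± 13.3 and 174.0 ± 37.4 CPM (SD, n = 3), and the groups overlapped widely (log2 fold change 0.00, SE 0.17, edgeR adjusted p = 0.994). Zmat3, an RNA-binding regulator of splicing, had 14.0, 15.9 and 15.4 CPM in normal and 24.8, 19.7 and 20.8 CPM in model libraries. All 3 model libraries were higher than all 3 normal ones. The log2 fold change of 0.53 (SE 0.16, edgeR adjusted p = 0.0269) was under the fold cutoff. It went past that cutoff without model 2 (0.61) and with total counts in place of TMM (0.66).

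Mdm2, the ubiquitin ligase of the feedback loop, had 101, 88.3 and 96.9 CPM in normal and 67.7, 85.7 and 82.7 CPM in model libraries. Each model library lay below each normal one, with a log2 fold change of -0.28 (SE 0.14) that did not pass (edgeR adjusted p = 0.140). Trp53inp1 encodes a stress protein that promotes the activity of p53 and autophagy, and it showed the largest fall of the 10. It went from 784, 682 and 678 CPM in normal to 167, 313 and 129 CPM in model libraries. The groups were far apart, and the mean fell from 714.6 ± 60.4 to 202.9 ± 97.4 CPM (SD, n = 3). The log2 fold change was -1.81 (SE 0.32), 3.51-fold lower than normal, with an edgeR adjusted p of 0.00333.

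Among the genes of cell death, Pmaip1 encodes Noxa, a small protein that blocks the survival protein Mcl1. Its levels were 14.0, 13.0 and 9.16 CPM in normal and 30.7, 39.8 and 47.8 CPM in model libraries. Every model library lay well above the highest normal one. The mean rose 3.28-fold (log2 fold change 1.71, SE 0.23, edgeR adjusted p = 6.05e-04), and the call was kept in every analysis tried.

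Bbc3 encodes Puma, a broad antagonist of survival proteins. It went the other way, with 3.19, 3.43 and 3.58 CPM in normal and 2.37, 1.70 and 2.65 CPM in model libraries. The groups did not overlap, but the log2 fold change of -0.59 (SE 0.28) did not pass (edgeR adjusted p = 0.120). Bax, the effector that opens the outer mitochondrial membrane, had 11.5, 11.3 and 12.1 CPM in normal and 13.8, 13.5 and 12.6 CPM in model libraries. The groups were again apart by a small margin, and the log2 fold change was 0.19 (SE 0.16, edgeR adjusted p = 0.353). Pmaip1 and Bbc3, which encode proteins of the same class, therefore had fold changes of opposite sign, of which only that of Pmaip1 passed the test.

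Eda2r encodes a receptor for ectodysplasin A2. It was the least abundant member, with 10, 3 and 5 counts in the normal libraries and 55, 22 and 15 in the model libraries. In CPM these were 0.724, 0.206 and 0.345 in normal and 3.17, 1.56 and 0.865 in model. The groups did not overlap, and model 1 was the highest. The log2 fold change was 2.13 (SE 0.63, 4.38-fold, edgeR adjusted p = 0.0257). It was 1.51 without model 1 (edgeR adjusted p = 0.0768) and also missed the cutoff without normal 2 (0.0925) or normal 3 (0.0857). Over the 14 alternatives that tested it, the adjusted p of Eda2r ran from 0.0135 to 0.0925. The alternative that asked for at least 10 counts in every library did not test it. Its call thus rests on a gene that passed the filter on low counts through the model libraries.

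Phlda3 encodes an inhibitor of the kinase Akt. Its levels were 3.55, 1.78 and 2.07 CPM in normal and 2.71, 0.850 and 0.981 CPM in model libraries. The groups overlapped through model 1 (log2 fold change -0.68, SE 0.50, edgeR adjusted p = 0.309). Without model 1 the log2 fold change was -1.40 (edgeR adjusted p = 0.0351, against a range up to 0.696 over the 15 alternatives). Eda2r and Phlda3 were both highest in replicate 1 within each of the 4 groups. The summed CPM of 6 stromal and endothelial markers was 554 in model 1 and 634 in QJSB 1, against 195 to 227 in the other model and QJSB libraries and 345 to 360 in normal marrow. In normal 1 the sum was 345, the lowest of the normal group, and in leucogen 1 it was 219, the highest of the leucogen group. Col1a1 alone had 305 CPM in model 1 and 424 CPM in QJSB 1. The endothelial markers Cdh5, Kdr and Pecam1 reached at most 7.44, 9.58 and 79.8 CPM in model and 8.10, 9.86 and 79.0 CPM in QJSB libraries. The part of stromal and endothelial cells in the Eda2r and Phlda3 values was not tested.

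**Figure D2:**
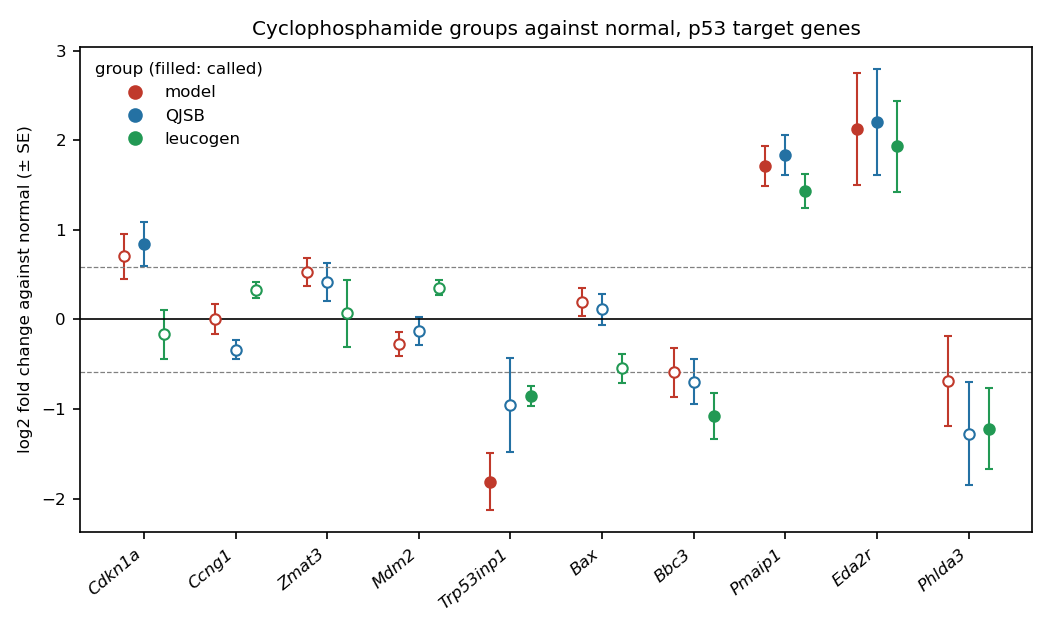
Log2 fold change (vertical axis, ± SE) of each p53 target gene against the normal group for model, QJSB and leucogen, with dashed lines at 0.585 on either side of 0 and filled points for called genes. The 3 comparisons share the normal libraries. Pmaip1 and Eda2r are called higher in each, while Trp53inp1 is called lower in model (-1.81) and leucogen (-0.86).

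Marker transcripts of several cell types changed together with these levels. The summed CPM of 8 erythroid markers was 13790 to 14870 in normal marrow and 221 to 1060 in the other 9 libraries, with all 8 markers called lower in model. That of 7 B cell markers went from 1033 to 1066 in normal to 5.07 to 69.5 in the other libraries. The sum of 4 promyelocyte markers went from 663 to 851 in normal to 5635 to 8819 in model, 7559 to 8393 in QJSB and 2918 to 3968 in leucogen. That of 6 macrophage markers ran from 505 to 569 in normal and from 288 to 544 elsewhere. In model against normal, Csf1r of that list was called higher (log2 fold change 0.81) and C1qa (-1.61) and Mrc1 (-1.17) lower, with 3 not called. These macrophage markers were named after their values were seen. The sum of 4 T and NK cell markers ran from 45.2 to 51.9 in normal and from 49.99 to 147 elsewhere. The rise of the T and NK sum in model was that of Nkg7 alone (mean 20.03 to 103 CPM), while Cd3e, Cd3d and Klrb1c were called lower, with log2 fold changes of -2.85, -2.95 and -1.58 (these 4 are the whole list). The sum of 4 megakaryocyte markers overlapped across all groups, from 101 to 383. No marker of these lists was at 0 in all libraries of any group, so the libraries held the lineages of marrow. In bulk RNA, fewer cells of a type and less RNA per cell cannot be told apart, and the part of the cell makeup in the changes of p53 targets was not tested.

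Trp53inp1 moved from library to library within the treated groups as well. It had 110, 616 and 371 CPM in the QJSB libraries and 337, 401 and 431 CPM in the leucogen libraries. QJSB 2 came near normal marrow, whereas QJSB 1 was the lowest of all 12 libraries. The summed CPM of 6 late neutrophil markers was 3190, 16920 and 11490 in the same QJSB libraries, so QJSB 1 was the lowest and QJSB 2 the highest of the group in both measures. In the model group that sum was 1964, 5850 and 4860, and model 2 was highest in both, but model 1 was lowest in the sum and model 3 in Trp53inp1. It was 8085 to 8663 in normal and 12660, 16440 and 14250 in leucogen libraries, of which leucogen 2 had the highest sum and leucogen 3 the highest Trp53inp1. Leucogen libraries thus held more of these markers than normal ones but less Trp53inp1. The part of neutrophil content in the Trp53inp1 level was not tested.

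**Figure D3:**
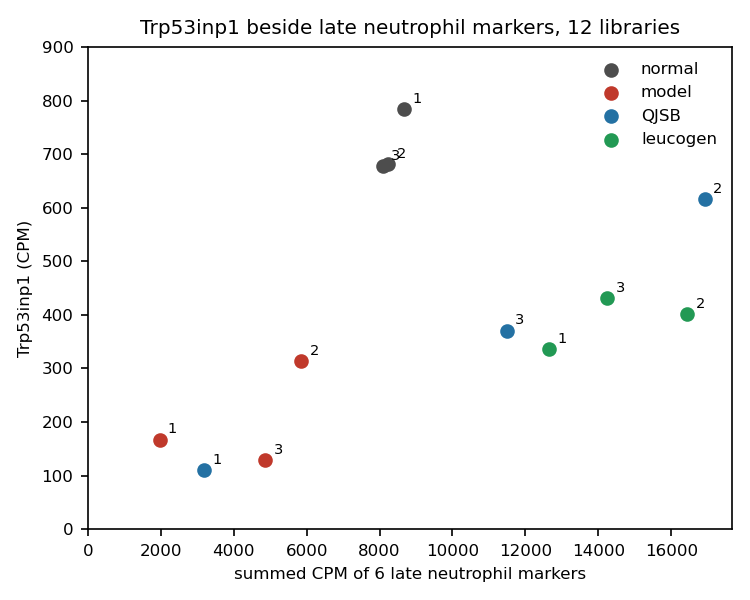
Trp53inp1 level (vertical axis, CPM) against the summed CPM of 6 late neutrophil markers (horizontal axis) in 12 libraries, numbered by replicate. Within the QJSB group QJSB 1 (110 CPM of Trp53inp1) is lowest and QJSB 2 (616 CPM) highest on both axes, and the 3 normal libraries stand above the rest in Trp53inp1.

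Compared with the model group, QJSB left no p53 target gene past the cutoff. The edgeR test called 0 of 10, beside 0.0% of 14486 genes, and 0 of 10 had an unadjusted p under 0.05 with the fold cutoff, beside 3.08% of all genes. DESeq2 and limma also called 0 of the 10. The QJSB and model libraries overlapped for every one of the 10, whereas they were apart for 9.8% of all genes. Taken by the same-numbered pairs, Mdm2 was higher with QJSB in 3 of 3 (67.9 against 67.7, 95.4 against 85.7 and 97.0 against 82.7 CPM), and the fit with the replicate block gave it a log2 fold change of 0.11 (SE 0.17, edgeR adjusted p = 0.839). The other 9 members had pairs of both signs, whereas 33.2% of all genes tested had 3 pairs of 1 sign. The largest log2 fold change was that of Trp53inp1, 0.83, with an SE of 0.60 that reflects the spread from 110 to 616 CPM (edgeR adjusted p = 0.784). Cdkn1a had 26.0, 22.7 and 18.8 CPM with QJSB, a log2 fold change of 0.11 (SE 0.22) from model. Pmaip1 had 46.4, 49.4 and 32.7 CPM (log2 fold change 0.10, SE 0.23), so its level stayed within the range seen in model or just above it. Ccng1 had 134, 132 and 144 CPM, close to the lowest model library (log2 fold change -0.36, SE 0.18, edgeR adjusted p = 0.767). These tests do not show that QJSB and model were equal.

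Set against normal marrow, the QJSB group had 3 of the 10 called, all higher, beside 37.9% of 14817 genes called and 18.0% called higher. They were Cdkn1a (log2 fold change 0.84, SE 0.25, edgeR adjusted p = 0.0257), Pmaip1 (1.84, SE 0.22, adjusted p = 5.77e-04) and Eda2r (2.21, SE 0.59, adjusted p = 0.0183). Cdkn1a in all 3 QJSB libraries lay above the highest normal library. The libraries were apart for 8 of the 10, beside 58.1% of all genes. Without normal 2 or normal 3, only Pmaip1 of the 3 stayed past the cutoff. Without normal 2, Cdkn1a and Eda2r had edgeR adjusted p of 0.0871 and 0.0726, and without normal 3 they had 0.0869 and 0.0695.

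Leucogen gave a different set. Compared with the model group, 3 of 10 were called, beside 23.1% of 14184 genes, with 1 higher (11.6% of all genes) and 2 lower (11.5%). Cdkn1a and Bax fell and Mdm2 rose. The median log2 fold change of the 10 was -0.38 and that of all genes -0.05. The libraries were apart for 5 of the 10, beside 46.0% of all genes.

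Cdkn1a had 10.5, 14.8 and 8.06 CPM with leucogen, each below the lowest model library of 16.1. The log2 fold change was -0.88 (SE 0.25, edgeR adjusted p = 0.0305). Leucogen was within the normal range for Cdkn1a apart from leucogen 3, which lay below it. Bax had 8.57, 6.74 and 8.35 CPM with leucogen, below every library of the other 3 groups. Its log2 fold change from model was -0.75 (SE 0.20, edgeR adjusted p = 0.0228). Mdm2 had 121, 121 and 119 CPM with leucogen, above every library of the other groups and with the smallest spread (120.6 ± 0.970, SD, n = 3). Its log2 fold change from model was 0.62 (SE 0.14, edgeR adjusted p = 0.0129). With total counts in place of TMM and with limma on FPKM that of Mdm2 was 0.45, under the fold cutoff.

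Trp53inp1 was 1.93-fold higher with leucogen than in model, with the groups apart, and its log2 fold change of 0.95 (SE 0.31) did not pass the adjusted cutoff (edgeR adjusted p = 0.0596). With DESeq2 and no library left out Trp53inp1 did pass, at 0.96 (DESeq2 adjusted p = 0.0056). Without model 2, which was the highest model library, its log2 fold change was 1.43 (edgeR adjusted p = 0.00196, against a range up to 0.182 over the 15 alternatives). Pmaip1 stayed high with leucogen at 25.2, 36.5 and 35.0 CPM, overlapping model (log2 fold change -0.28, SE 0.21, edgeR adjusted p = 0.328). The call count depended on single libraries. It was 0 of 10 without model 1, without leucogen 1 or without leucogen 3. In these fits 16.1%, 11.8% and 8.44% of all genes were called, in place of 23.1%.

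Against normal marrow, leucogen had 5 of 10 called, beside 37.7% of 14637 genes, with 2 higher (17.8% of all genes) and 3 lower (19.8%). Pmaip1 (log2 fold change 1.44, SE 0.19) and Eda2r (1.94, SE 0.51) were higher, with edgeR adjusted p of 1.61e-04 and 0.00947. Bbc3 fell to 1.67, 1.45 and 1.63 CPM, below every normal and model library (-1.08, SE 0.26, edgeR adjusted p = 0.00541). Trp53inp1 (-0.86, SE 0.11, edgeR adjusted p = 1.07e-04) and Phlda3 (-1.22, SE 0.45, edgeR adjusted p = 0.0442) were lower. Phlda3 rested on 8 to 21 counts per leucogen library and missed the cutoff without normal 1, normal 3, leucogen 2 or leucogen 3 (edgeR adjusted p from 0.0607 to 0.185). The libraries were apart for 8 of the 10, beside 61.8% of all genes.

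The direct comparison of the 2 drugs called 3 of 10, beside 24.6% of 14266 genes. Cdkn1a was 1.99-fold higher with QJSB than with leucogen (log2 fold change 0.99, SE 0.24, edgeR adjusted p = 0.0168), and Bax was 1.56-fold higher (0.64, SE 0.21, edgeR adjusted p = 0.0488). Ccng1 had 203, 220 and 227 CPM with leucogen and at most 144 with QJSB. Its log2 fold change was -0.68 (SE 0.12, edgeR adjusted p = 0.00624). QJSB and leucogen libraries did not overlap for these 3 genes and for 5 of the 10 in all, beside 48.8% of all genes. Bax missed the cutoff when any 1 of the 6 libraries was left out (edgeR adjusted p from 0.0516 to 0.145). Without leucogen 1 or leucogen 3 Ccng1 alone was called, with Cdkn1a at adjusted p of 0.0679 and 0.0727. In these fits 14.7% and 10.5% of all genes were called.

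GC content of transcripts moved together with these drug differences. All genes were divided into 5 classes of equal size by GC. From the class with the lowest GC to that with the highest, the median difference on the log2 scale went from -0.53 to 0.47 for QJSB against leucogen and from 0.30 to -0.35 for leucogen against model. Ccng1 (40.8% GC) lies in the lowest class, Bax (63.6%) in the highest and Cdkn1a (54.4%) in the next below it. When the GC trend of each library was removed, QJSB against leucogen gave 0.65 for Cdkn1a, 0.06 for Bax and -0.20 for Ccng1 (edgeR adjusted p of 0.0784, 0.868 and 0.258). Pmaip1 was then the 1 p53 target called, at 0.76 (edgeR adjusted p = 0.0489), beside 12.5% of all genes in place of 24.6%. Leucogen against model then kept Mdm2 just past the fold cutoff (0.59, edgeR adjusted p = 0.0134), while Cdkn1a was -0.63 (0.0559) and Bax -0.36 (0.234). For QJSB against normal, Cdkn1a was 0.58 (edgeR adjusted p = 0.0941). The part of GC content in these differences was not tested. The calls of Pmaip1, Eda2r and Trp53inp1 in model against normal were kept with the GC trend removed, at log2 fold changes of 1.85, 2.29 and -1.64.

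**Figure D4:**
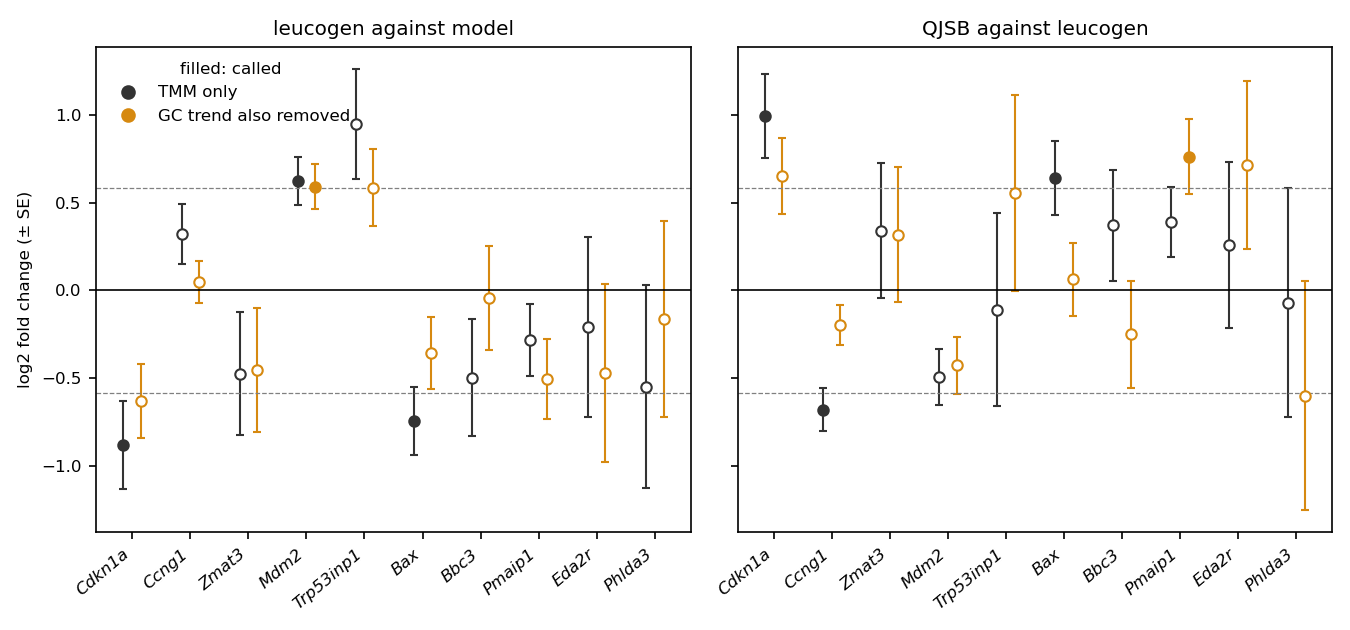
Log2 fold change (vertical axis, ± SE) of each p53 target gene for leucogen against model and QJSB against leucogen, with TMM scaling alone (grey) and with the GC trend of each library also removed (orange). Filled points are called and dashed lines mark 0.585 on either side of 0. Bax moves from 0.64 to 0.06 and Ccng1 from -0.68 to -0.20 in QJSB against leucogen.

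Genes that regulate p53 itself were examined next. Of 15 listed regulators, 13 were tested, of which 0 were called higher and 5 lower in model against normal, beside 16.1% and 19.0% of all genes. The 5 were Ppm1d, Usp7, Rchy1, Sirt1 and Chek1, of which the last 4 were named after their values were seen. The median log2 fold change of the list was -0.31. Trp53, which encodes p53, had 52.3, 44.8 and 44.9 CPM in normal and 60.8, 35.7 and 65.8 CPM in model libraries, and the groups overlapped (log2 fold change 0.20, SE 0.22, edgeR adjusted p = 0.505). Ppm1d, a phosphatase that shuts off the p53 response and is itself a p53 target, went from 75.9, 77.5 and 72.1 CPM to 34.0, 34.7 and 41.8 CPM. The groups were far apart (log2 fold change -1.02, SE 0.13, edgeR adjusted p = 5.36e-04). Mdm4, the partner of Mdm2, Atm, the kinase that senses double-strand breaks, and Chek2, its target kinase, had log2 fold changes of -0.31, -0.18 and -0.19 and were not called (edgeR adjusted p of 0.0939, 0.322 and 0.327).

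With leucogen, 3 of the 13 regulators were called higher and 1 lower than in model, beside 11.6% and 11.5% of all genes, and with QJSB 0 in either direction, beside 0.0%. Leaving out 1 library at a time gave 2 to 4 called with leucogen, the lowest count without leucogen 3. Without leucogen 3, 8.44% of all genes were called in place of 23.1%. Beside Mdm4 the higher genes were Hipk2 (0.80) and Rchy1 (0.80, both log2 fold changes), named after their values were seen. Trp53 fell to 33.8, 30.2 and 33.2 CPM with leucogen, below every library of the other groups (log2 fold change -0.73 from model, SE 0.22, edgeR adjusted p = 0.0363). That call of Trp53 was lost without model 1, model 3 or any 1 of the leucogen libraries (edgeR adjusted p from 0.0966 to 0.110), and that of Mdm4 without leucogen 3 (0.0648). Mdm4 rose from 258, 338 and 291 CPM in model to 482, 433 and 498 CPM with leucogen (0.68, SE 0.15, edgeR adjusted p = 0.0124). With the GC trend removed, neither passed the cutoff, at -0.49 for Trp53 and 0.54 for Mdm4. Mdm4 was also under the fold cutoff with total counts in place of TMM and with limma on FPKM, at 0.51 in each.

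Other p53 targets were split. Of 28 listed, 26 were tested in model against normal, of which 6 were called higher, 6 lower and 14 not at all, beside 35.1% of all genes called, with a median log2 fold change of -0.03. The largest rises were in Tnfrsf10b, a death receptor (log2 fold change 1.79, SE 0.32), Tigar, a regulator of glycolysis (1.37, SE 0.23), Dcxr, a sugar reductase (1.05, SE 0.26), Xpc, a sensor of DNA damage in nucleotide excision repair (0.80, SE 0.13), and Apaf1, the scaffold of the apoptosome (0.66, SE 0.13). Their edgeR adjusted p ran from 0.00145 to 0.0122. Tnfrsf10b had 1.45, 1.30 and 1.24 CPM in normal and 3.29, 4.39 and 6.12 CPM in model libraries, with no overlap. The largest falls were in Btg2, an antiproliferative gene (-2.90, SE 0.21), Steap3, an iron reductase of erythroblasts (-2.59, SE 0.27), Perp, a membrane protein of desmosomes (-2.38, SE 0.35), Gadd45a, a growth arrest gene (-1.86, SE 0.21), and Rrm2b, a ribonucleotide reductase subunit (-1.81, SE 0.13). Their edgeR adjusted p ran from 3.3e-05 to 0.00101. Btg2 had 266, 236 and 246 CPM in normal and 42.4, 33.1 and 24.1 CPM in model libraries, far below.

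**Figure D5:**
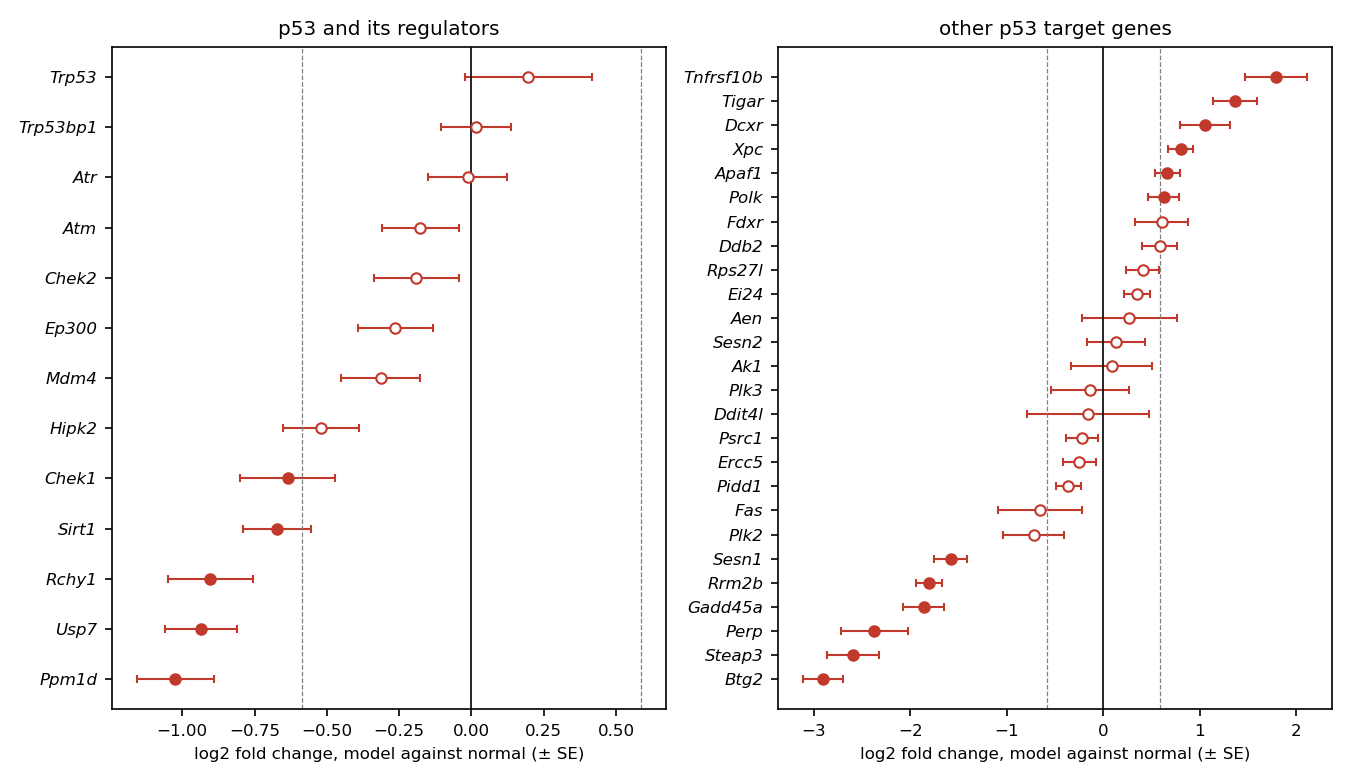
Log2 fold change (horizontal axes, ± SE) in model against normal of 13 genes of p53 and its regulators and of 26 other p53 target genes, with filled points for called genes and dashed lines at 0.585 on either side of 0. In the first list 5 genes are called, all lower, and in the second 6 are called higher and 6 lower.

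In the other comparisons, QJSB against model called 0 of 27 other targets and leucogen against model 1 higher, Rrm2b (0.73), and 3 lower, Sesn2 (-1.12), Psrc1 (-1.01) and Steap3 (-1.01), all as log2 fold changes, beside 23.1% of all genes. Leaving out 1 library at a time gave 0 to 5 called with leucogen (0 without leucogen 3, 2 without leucogen 1). Of all genes, 8.44% and 11.8% were called in those fits. Against normal, QJSB had 7 of 25 called higher and 7 lower, beside 37.9% of all genes called, and leucogen 7 of 27 higher and 11 lower, beside 37.7%. The direct comparison of QJSB with leucogen had 3 of 27 higher, Plk2 (1.28), Psrc1 (0.92) and Sesn2 (1.04), and 1 lower, Rrm2b (-0.93), beside 24.6% of all genes called. That count was 1 to 5 with 1 library left out (1 without leucogen 1 or leucogen 3, 2 without leucogen 2 or QJSB 3). All-gene shares were 14.7% without leucogen 1 and 10.5% without leucogen 3. Plk2, Psrc1 and Sesn2 were named after their values were seen. These counts share control libraries and are given side by side only.

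Other cell cycle genes were set beside Cdkn1a. Of 6 other inhibitors of cyclin-dependent kinases 4 were tested, and 3 were called lower in model against normal, namely Cdkn1b (-1.22), Cdkn2c (-1.28) and Cdkn2d (-1.01) as log2 fold changes. The fourth, Cdkn1c, had 0.18 and was not called (edgeR adjusted p = 0.774), and 19.0% of all genes were called lower. These 4 genes were named after their values were seen. Of 13 genes of the G2 and M phases, 5 were called lower (Ccna2, Cdk1, Cenpf, Mki67 and Top2a, named after their values were seen) and 0 higher in model against normal, beside 19.0% and 16.1% of all genes, with a median log2 fold change of -0.57.

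The genes whose levels most resembled those of 3 members across the 12 libraries were found by the root mean square difference of log2 CPM, each gene centred on its own mean, among 11048 genes. For Cdkn1a they were Tex261 (difference 0.154), Atox1 (0.186) and Uqcrc1 (0.190), beside a standard deviation of 0.560 for Cdkn1a itself. For Ccng1 they were Gmfb (0.0523), Fam199x (0.0681) and Ctdspl2 (0.0746), beside 0.283. For Bbc3 they were Zfp526 (0.121), Pecam1 (0.130) and Cenpn (0.132), beside 0.425. None of the 9 is on the lists of p53 targets used here. Libraries of 1 table share their scaling and GC trend, so likeness is a description.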

How the data were processed

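The authors depleted ribosomal RNA and sequenced strand-specific libraries, 1 per mouse, and reads were mapped with HISAT2 to mm10 per the labels. The counting program was not given in the sources used here. The deposited table holds a raw read count and an FPKM per gene and library, the latter computed by the authors from fragments, transcript length and total fragments. Its column headings are Blank, Model, Stilbene and Positive. Apart from Model, neither labels nor paper use these headings. Blank was taken as normal and Positive as leucogen by meaning, and Stilbene as QJSB by elimination, so every statement on these groups rests on that reading. The number of unused columns was 0. Library totals ran from 11172547 to 18545198 counts, and depth limits counting error only.

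CPM were scaled by TMM factors, and GC content is that of the longest annotated transcript. Counts were tested with edgeR 4.0.16 in R 4.3.3 (TMM, filterByExpr, robust quasi-likelihood fit), 2 groups at a time, with Benjamini-Hochberg adjustment over all genes tested. A gene was called at a log2 fold change beyond 0.585 in either direction and an adjusted p under 0.05. The study's methods used an unadjusted P with the same fold cutoff and DESeq2. Replicates are separate mice. Alternatives were DESeq2 1.42.0, other scalings and filters, a replicate block, limma 3.58.1 on log2(FPKM + 0.1), all 12 libraries fitted together, and each library left out. Removal of the GC trend was chosen after seeing the data. The tests were checked on simulated counts.

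The members and gene lists were chosen with earlier results of these data known. Named were all 10 members, Trp53, Mdm4, Ppm1d, Atm and Chek2, the 5 largest rises and 5 largest falls among other targets past the cutoff in model against normal, and the 3 genes most like Cdkn1a, Ccng1 and Bbc3. The replicate numbers were checked as pairs by correlating deviations from group means over 15310 genes. Between QJSB and model they were 0.426, 0.123 and 0.107, so these numbers were taken as pairs, although no source names a shared batch. The correlations between QJSB and leucogen were also positive, at 0.181, 0.134 and 0.0782, and those numbers were not taken as pairs. Libraries of different number were not correlated, so no baseline stands beside these values. The pairing rests on the expression data alone and may not be real.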

Additional observations from a re-analysis of the deposited data

Results flagged for a closer look

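The effects of QJSB and leucogen were measured against the same model libraries, and the difference between the effects was tested directly as QJSB against leucogen with edgeR. Only the p53 target members and Trp53, Mdm4, Ppm1d, Atm and Chek2 were considered here, so other named genes such as Rrm2b are not counted. The difference passed the cutoff for 5 of the genes considered, beside 24.6% of all genes tested. The log2 difference was 0.99 for Cdkn1a, 0.64 for Bax and 0.90 for Trp53, all higher with QJSB, and -0.68 for Ccng1 and -0.65 for Mdm4, both higher with leucogen. With the GC trend of each library removed, the same differences were 0.65, 0.06, 0.58, -0.20 and -0.39, in that order of genes, and none of the 5 passed the cutoff. Trp53 missed it narrowly and by the fold alone, with an edgeR adjusted p of 0.048. No test of single outlying libraries was run in these groups of 3.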

How the results depend on the processing

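The count of p53 targets called in model against normal was 3, and 5 with total counts in place of TMM. That scaling moved the all-gene median on the log2 scale from 0.02 to 0.14 and the called genes from 2368 higher and 2803 lower to 3024 and 2346. In leucogen against model it moved the median from -0.05 to -0.22 and the calls from 1641 higher and 1635 lower to 1150 and 2655. With the GC trend removed, the count of p53 targets called went from 3 to 1 in leucogen against model and in QJSB against leucogen. Of all genes, 19.6% in place of 23.1% were then called in the first comparison and 12.5% in place of 24.6% in the second. All 12 libraries in one fit gave 3 in place of 5 for leucogen against normal, where Trp53inp1 was at adjusted p = 0.191 and Phlda3 at 0.136 with edgeR. Leaving out 1 library at a time gave 2 to 5 of 10 for model against normal (5 without model 2), 0 to 4 for leucogen against model, 1 to 4 for QJSB against normal, 4 to 6 for leucogen against normal, 1 to 2 for QJSB against leucogen (1 without leucogen 1 or 3) and 0 throughout for QJSB against model. Without leucogen 3 the all-gene share fell too, to 8.44% in leucogen against model and 10.5% in QJSB against leucogen. Of 892 member values under alternatives, 777 kept direction and side of the cutoff, 51 lost it, 26 gained it, and 38 uncalled values changed sign. No called value changed sign. Of the other lists, regulators called in model against normal were 3 in place of 5 with total counts and with limma on FPKM, and 2 in place of 4 in leucogen against model with the GC trend removed. Other targets called were 2 in place of 4 with the replicate block in leucogen against model, and 1 in place of 4 with the GC trend removed in QJSB against leucogen.

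The replicate block called 0 of 10 in QJSB against model, the comparison whose numbers were taken as pairs, as did the fit without it, and 18 in place of 0 of all genes. In the other comparisons the numbers were not taken as pairs. There the block gave 4 called in model against normal, where Cdkn1a passed (0.73, edgeR adjusted p = 0.0224), and 2 in leucogen against model, where Cdkn1a (0.0588) and Bax (0.0506) did not pass and Trp53inp1 did (1.04, edgeR adjusted p = 0.0336). Depth limits Eda2r, Phlda3 and Bbc3 most, at 3 to 59 counts per library.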

Other observations

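The summed CPM of the 10 p53 targets was 989 to 1136 in normal marrow, 463 to 707 in model, 433 to 948 in QJSB and 730 to 840 in leucogen libraries. Most of this sum in normal marrow was Trp53inp1. Without it, the sum was 311 to 351 in normal, 332 to 394 in model, 323 to 332 in QJSB and 394 to 422 in leucogen libraries. The leucogen libraries thus lay near or above the highest library of the other groups in this sum. Ccng1 (mean 216 CPM) and Mdm2 (mean 121 CPM) were the most abundant remaining genes with leucogen, so the sum mainly reflects them. Gene by gene, leucogen against model had a log2 fold change above 0 in 3 of 10 genes and a median of -0.38.

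Of the 13 genes of the G2 and M phases, 11 were called lower in leucogen against normal, beside 19.8% of all genes, and 6 lower and 1 higher (Plk1, 0.74 on the log2 scale) in QJSB against normal, beside 37.9% called. There were 3 higher (Aurka, Ccnb2 and Plk1) and 0 lower in QJSB against leucogen, beside 24.6% called. These 3 genes were named after their values were seen.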
